A study of Mus musculus with 20 samples.

Results

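The regions described here are stretches of the mouse genome, away from gene starts, that carried a called H3K27ac peak in facial tissue at e15.5 and none at e11.5. H3K27ac ChIP-seq peaks of 10 libraries were merged into 42346 regions, of which 27439 lay more than 1 kb from every annotated transcript start and are called distal. A distal region was a late region when it was selected on having a peak in at least 2 of the 3 e15.5 libraries and in none of the 4 e11.5 libraries, which 1349 regions met, or 4.92% of all distal regions. These peak calls chose the members, so presence at e15.5 and absence at e11.5 describe the rule and are not findings.

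Tissue was dissected fresh from the faces of wild-type mouse embryos, and its cells were profiled as a mixture. The nose and both jaw primordia (mandibular and maxillary process) were taken at e13.5 and e15.5, and at e11.5 the same jaw primordia with 2 nasal primordia, lateral nasal plate and medial nasal plate. Each tissue and stage had 1 library, so libraries of a stage are different tissues and not replicates. At e15.5 the tissue in the label and in the deposited peak names differed: the library labelled mandibular carries peak names of the nose, the one labelled maxillary those of the mandible, and the one labelled nose those of the maxilla. The labels are used below. The promoter of Hand2, a transcription factor of the mandibular mesenchyme, had a peak in the mandibular libraries of e11.5 and e13.5 and, at e15.5, in the library labelled maxillary alone.

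H3K27ac, acetylation of lysine 27 of histone H3, marks active promoters and active enhancers, the distant elements that drive transcription of a gene in particular cells. Between these stages the facial processes fuse, the palate forms and closes, the surface epithelium stratifies, and mesenchyme derived from the neural crest gives rise to bone, cartilage and connective tissue. AP-1, a dimer of FOS and JUN proteins, binds enhancers of epithelial cells and fibroblasts. SOX proteins act in progenitors, neural crest and cartilage, and homeodomain proteins carry positional information in the facial primordia.

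A search of all 1349 regions for 29 short consensus motifs on both strands gave 861 matches to the AP-1 core, whose letters are tgactca, in 3.37 Mb of sequence. The 7 stretches of 150 bases printed here show such matches at genes chosen by a rule given with the processing. They lie at epithelial genes (Grhl2 and Dsp), a matrix gene (Thbs2) and the 2 chosen regions with paired matches close together (Sh3pxd2a and Farp1). The others lie in regions found in all 3 e15.5 libraries (Cdkn1c) or, like the Grhl2 and Dsp regions, without an e13.5 peak (Zbtb16). All are GRCm38 (mm10) sequence, read 5′ to 3′ on the plus strand, and capitals mark the AP-1 core on either strand. The Grhl2 stretch (chr15:37158981-37159130) and the Dsp stretch (chr13:38123685-38123834) lie between genes. The Thbs2 stretch is chr17:14606380-14606529, also between genes. The Sh3pxd2a stretch is chr19:47282006-47282155, in a region that overlaps an exon, and the Farp1 stretch is chr14:121190502-121190651, in an intron. The Cdkn1c stretch, chr7:143463451-143463600, lies between genes, and the Zbtb16 stretch, chr9:48794057-48794206, in an intron.
Grhl2: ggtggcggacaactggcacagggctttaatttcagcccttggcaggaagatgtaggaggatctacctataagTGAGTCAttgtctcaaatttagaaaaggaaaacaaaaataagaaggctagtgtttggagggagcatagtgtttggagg
Dsp: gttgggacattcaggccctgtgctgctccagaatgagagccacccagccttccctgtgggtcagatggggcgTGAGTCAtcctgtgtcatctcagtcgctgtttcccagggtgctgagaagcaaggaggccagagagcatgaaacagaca
Thbs2: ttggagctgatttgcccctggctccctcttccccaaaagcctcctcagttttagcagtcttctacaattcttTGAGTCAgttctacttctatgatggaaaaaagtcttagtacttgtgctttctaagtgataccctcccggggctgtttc
Sh3pxd2a: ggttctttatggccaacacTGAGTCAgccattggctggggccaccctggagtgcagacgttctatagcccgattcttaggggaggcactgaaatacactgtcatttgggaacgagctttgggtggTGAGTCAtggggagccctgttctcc
Farp1: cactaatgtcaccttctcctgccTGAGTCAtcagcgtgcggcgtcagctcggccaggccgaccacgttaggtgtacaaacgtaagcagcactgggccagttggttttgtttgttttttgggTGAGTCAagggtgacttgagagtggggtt
Cdkn1c: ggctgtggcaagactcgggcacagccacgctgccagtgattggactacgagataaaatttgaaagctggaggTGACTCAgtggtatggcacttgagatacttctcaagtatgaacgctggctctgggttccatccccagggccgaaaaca
Zbtb16: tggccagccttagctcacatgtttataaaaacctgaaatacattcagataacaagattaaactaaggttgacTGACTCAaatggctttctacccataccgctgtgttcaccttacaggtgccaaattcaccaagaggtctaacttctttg

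The peak lists held between 6573 and 25947 peaks per library, and the number of reads behind them is not known. Of the e15.5 libraries, the one labelled nose had the fewest distal peaks (2790, against 8701 and 6738 in those labelled mandibular and maxillary), and 23.7% of all its peaks were narrower than 500 bp. Of the late regions, 1084 (80.4%) had a peak in the libraries labelled mandibular and maxillary only, 147 (10.9%) in all 3, 68 in those labelled mandibular and nose, and 50 in those labelled maxillary and nose. Without the library labelled mandibular the rule gave 197 regions, and without the one labelled maxillary 216. Just outside the rule lay 6374 distal regions with a peak in 1 e15.5 library and none at e11.5, 623 with at least 2 e15.5 libraries and 1 e11.5 library, and 744 late regions within 1 kb of a start. The member nearest to a start was 1029 bp away, and the excluded region farthest from one 995 bp. The median gap from a member to the nearest e11.5 peak was 12828 bp, while 68 members (5.04%) had an e11.5 peak within 1 kb.

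The median width of late regions was 2343 bp (quartiles 1794 and 2969), against 1161 bp for all distal regions. It was 3137 bp for the 2546 e15.5 regions that did have an e11.5 peak. For the 2558 early regions, which had a peak in at least 2 e11.5 libraries and none at e15.5, it was 2005 bp. Regions are peaks merged over libraries, and the classes required different numbers of libraries. The part of this in the widths was not tested. Peaks of late regions were ranked by fold enrichment among the distal peaks of the same library. Their median percentile was 55.5 in the library labelled mandibular, 54.0 in the one labelled maxillary and 45.8 in the one labelled nose. E15.5 regions with an e11.5 peak stood at 77.6, 71.2 and 60.8. Of the late regions, 552 (40.9%, 95% exact binomial interval 38.3 to 43.6) lay in introns, 172 (12.8%) overlapped an exon and 625 (46.3%, 43.6 to 49.0) lay between genes. Of all distal regions 42.1% lay in introns, 8.73% overlapped an exon and 49.1% lay between genes, so the share of late regions in introns was near that background and the share at exons above it, as it was for e15.5 regions with an e11.5 peak (12.9%). The median distance to a protein-coding start was 21.2 kb for late regions, 21.3 kb for e15.5 regions with an e11.5 peak, 35.5 kb for early regions and 27.8 kb for all distal regions. Intervals here and below cover counting error only, since regions are not replicates of a stage.

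The e13.5 libraries, whose calls the rule did not count, show when the late regions were first called. Their peaks did take part in the merging, and merging without them gave 1362 late regions. At e13.5, 839 of 1349 late regions (62.2%, 59.5 to 64.8) overlapped a peak in at least 1 library, against 47.3% of all distal regions. All distal regions include those called at e13.5 only, and among the distal regions with an e11.5 or e15.5 peak the share was 38.8%. The e13.5 calls came mostly from the nose. The nose library had a peak in 60.9% of late regions (58.3 to 63.5), the mandibular library in 5.78% (4.6 to 7.16) and the maxillary library in 5.26% (4.13 to 6.59). Over all distal regions these shares were 45.2%, 5.85% and 5.84%, so late regions stood above them in the nose library only. Late regions needed a peak in at least 2 libraries and all distal regions did not, so the sets are unlike. Early regions, also chosen on at least 2 libraries, stood at 57.9% in the nose library. In 711 late regions (52.7%) the nose was the only e13.5 library with a peak, in 20 all 3 had one, and 510 (37.8%) had none. The nose list also held 13207 distal peaks against 1765 and 1802 in the other two, and the part of this difference in the result was not tested. Members found in all 3 e15.5 libraries were called more often at e13.5 (77.6%, 69.9 to 84.0), and regions in only 1 e15.5 library less often (21.1%).

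**Figure D1:**
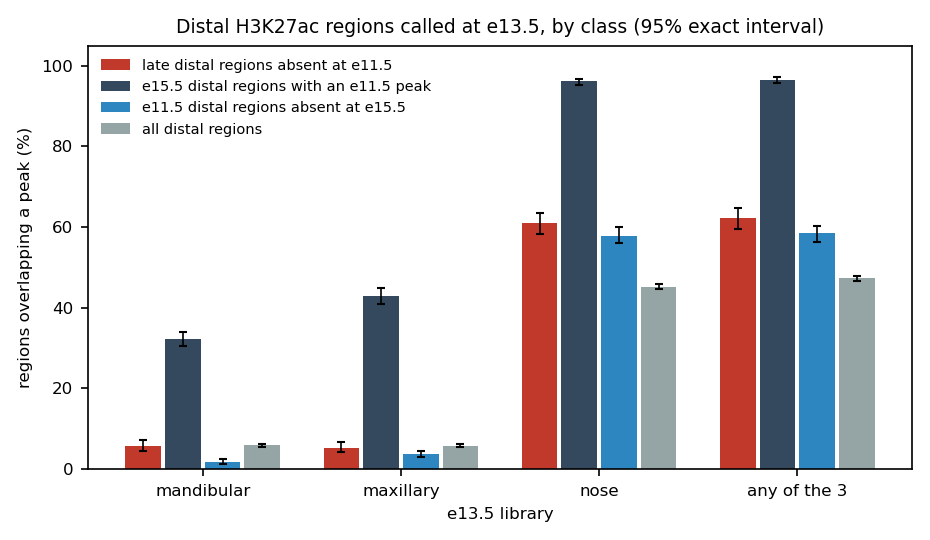
Percent of distal regions, by class, that overlapped an H3K27ac peak in each e13.5 library and in any of the 3; bars start at 0 and error lines are 95% exact binomial intervals. Late regions stand at 5.78%, 5.26% and 60.9% in the mandibular, maxillary and nose libraries, below e15.5 regions with an e11.5 peak in each library. The latter were selected on an e11.5 peak as well as on e15.5 peaks.

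Compared with e15.5 regions that already had an e11.5 peak, late regions were called less often in each e13.5 library. The shares of the former were 32.3%, 42.9% and 96.1% in the mandibular, maxillary and nose libraries. The mean difference, late regions minus these, was -33.1 percentage points (SD 5.84 over 3 libraries). The former were also selected on an e11.5 peak, were wider and ranked higher at e15.5, so the sets are unlike. The part of this in the difference was not tested. Compared with early regions, present at 1.84%, 3.67% and 57.9%, late regions were higher in 3 of 3 libraries by a mean of 2.84 percentage points (SD 1.19). An exact two-sided sign-flip permutation test over the 3 libraries gave p = 0.25 for each comparison (0.25 after Benjamini-Hochberg adjustment over both), the smallest value 3 libraries allow. The difference from early regions turned to -0.875 percentage points without the e11.5 medial nasal plate and to -0.076 without the e11.5 lateral nasal plate. In the e13.5 nose, late regions with a peak stood at a median percentile of 56.1 by fold enrichment among distal peaks, beside 86.0 for e15.5 regions with an e11.5 peak and 53.2 for early regions.

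Among the 147 members found in all 3 e15.5 libraries, those with the highest fold enrichments lay near genes of varied function. An intron of Nfia, which encodes a transcription factor of the nuclear factor I family, held the leading one (chr4:97867576-97870787), with fold enrichments of 9.03, 6.27 and 4.72 in the libraries labelled as mandibular, maxillary and nose. At e13.5 the same region had 4.56 in the mandibular, 3.4 in the maxillary and 8.37 in the nose library. All 6 later libraries thus had a peak there, and the nearest e11.5 peak was 21318 bp away.
A region 42719 bp from a coding start of Dab2ip, a GTPase-activating protein, had fold enrichments of 8.31, 5.94 and 4.49 at e15.5 and 8.99 in the e13.5 nose. A region 61392 bp from a start of Ppara, a nuclear receptor of lipid metabolism, had 7.31, 5.52 and 4.12, and 8.33 in the e13.5 nose. The other members of this set lay nearest to Fer1l6, Atoh8, Cdkn1c, Ptpdc1 and Ptpn14. Each of the 8 had a peak in the e13.5 nose, so these late regions were called there before e15.5.

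The widest late region spanned 10138 bp (chr14:28519102-28529239) and overlapped exons of Wnt5a, a Wnt ligand needed for outgrowth of the face and limbs. Its peaks had fold enrichments of 3.35 and 3.38 in the libraries labelled mandibular and nose and 3.47 in the e13.5 nose. An e11.5 peak lay 299 bp away, and the Wnt5a promoter had a peak in all 10 libraries. The next widest lay in introns of Rad51b (9049 bp), Kcnh1 (8319 bp) and Ldlrad3 (7907 bp). Of the late regions, 130 (9.64%) stood in 62 runs of members less than 12500 bp apart, and the 6 longest runs held 3 members each. These 6 runs were nearest to Fam178b, Col6a3, Pygb, Zfp36l1, Lrrc74a and Ldlrad4. By the same gap, 21.6% of e15.5 regions with an e11.5 peak, 13.3% of early regions and 51.4% of all distal regions stood in runs of their own class, and these classes hold more regions.

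A protein-coding start lay within 100 kb of 1183 late regions (87.7%). The share was 85.6% for e15.5 regions with an e11.5 peak, 75.7% for early regions and 79.0% for all distal regions. Gene-list shares below count all regions of a class, also those without such a start. By nearest start, the 1183 fell to 1007 genes, of which 863 had 1 region. The genes with 4 were Dnm3, which encodes a dynamin, Fam178b, Frmd4a, which encodes a scaffold protein of cell polarity, and Thbs2, which encodes the matrix protein thrombospondin 2. A further 24 genes had 3. The nearest gene need not be the gene a region acts on. Dnm3 and Frmd4a also had many other distal regions (26 and 28 in all), so 4 late ones are a small part of what they hold. Around Thbs2, 4 of 10 distal regions were late and none was early. Around Fam178b 4 of 6 were late, and around Pygb, which encodes brain glycogen phosphorylase, all 3 of 3.

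Genes of the surface epithelium took a larger share of late regions than of the other classes. Of 28 such genes, 8 were nearest to at least 1 late region, and 13 late regions (0.964%, 0.514 to 1.64) fell to them, against 0.222% of all distal regions, 0.236% of e15.5 regions with an e11.5 peak and 0.0782% of early regions. Trp63, the p63 transcription factor that directs stratification of epithelia, had 3, and so did Grhl2, a grainyhead factor of epithelial identity. Dsp, which encodes the desmosomal protein desmoplakin, had 2, and Esrp1, an epithelial splicing regulator, had 1. At e15.5 all regions of Trp63, Grhl2, Dsp and Esrp1 had peaks in the libraries labelled mandibular and maxillary only. The same held for 80.4% of all late regions. An e13.5 peak overlapped 8 of the 13. With the nearest start limited to 20 kb, the share was 0.297% (0.0808 to 0.757) of late regions, against 0.106% of all distal regions.
The 3 Grhl2 regions lay 71901, 39237 and 32192 bp from its coding start, with fold enrichments between 2.89 and 3.66 in the libraries labelled mandibular and maxillary. The last of these had an e11.5 peak 286 bp from its edge, in the lateral nasal plate. The Dsp regions had 2.68 and 2.58 (chr13:38122766-38124965, no e13.5 peak) and 3.09 and 3.31 (chr13:38161857-38164090, 3.27 in the e13.5 nose).

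Promoter peaks of epithelial markers varied between libraries within each stage. Of the 5 markers Trp63, Epcam, Krt5, Krt14 and Grhl2, the e11.5 mandibular and maxillary libraries had a promoter peak at 0, the medial nasal plate at 3 and the lateral nasal plate at 4. At e13.5 the numbers were 0, 1 and 3, and at e15.5 they were 4, 5 and 2 in the libraries labelled as mandibular, maxillary and nose. The lists with 0 or 1 such promoter held 6573 to 10755 peaks, and those with 3 to 5 held 16577 to 25947. Whether the share of epithelial cells differed between stages was not tested, and in mixed tissue fewer cells of a type and less acetylation per cell cannot be told apart. Facial mesenchyme markers (Prrx1, Twist1, Msx1 and Pdgfra) had promoter peaks in all 10 libraries. Of the 2 or 3 defining markers each of muscle, endothelium, macrophages and glia, at most 1 had a promoter peak in any library. Longer lists of genes had more: of 15 endothelial genes, 4 had a promoter peak at both e11.5 and e15.5, 3 at e15.5 alone and 3 at e11.5 alone, and of 19 skeletal muscle genes 5, 3 and 0 did. The skeletal muscle, macrophage, tendon and erythroid lists had 0 late regions, and took 0.109%, 0.0292%, 0.0292% and 0.00729% of all distal regions.

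Genes of the extracellular matrix of fibroblasts took more late regions than any other of the 24 lists. Of 35 such genes, 15 were nearest to a late region, and 23 late regions (1.7%, 1.08 to 2.55) fell to them, against 0.554% of all distal regions, 0.707% of e15.5 regions with an e11.5 peak and 0.274% of early regions. Of the 23, 19 had an e13.5 peak. The share was 0.508% without the library labelled mandibular, 2.78% without the one labelled maxillary and 0.68% among members in all 3 e15.5 libraries. With the nearest start limited to 20 kb it was 0.593% (0.256 to 1.17), against 0.23% of all distal regions.
The 4 Thbs2 regions had fold enrichments of 3.94, 4.37, 3.3 and 2.69 in the e13.5 nose, and none had a peak in the other e13.5 libraries. At e15.5 all 4 had a peak in the library labelled mandibular (3.99, 3.43, 4.29 and 2.77), 3 in the one labelled maxillary (2.66, 4.77 and 2.84) and 1 in the one labelled nose (3.89).
Col6a3, a chain of collagen VI, had a run of 3 late regions within 22656 bp. The region nearest to its start (chr1:90753088-90755542) had peaks in 5 of the 6 later libraries, with fold enrichments of 2.81 in the e13.5 maxillary process, 5.8 in the e13.5 nose, and 4.2, 4.34 and 3.55 at e15.5. Col5a1, a chain of the fibrillar collagen V, had 3, of which 1 had an e13.5 peak. Adamts2, the protease that trims procollagen amino-terminal ends, had 2, both called in the e13.5 nose at 3.33 and 3.78. The bone list had 2 late regions (0.148%, against 0.113% of all distal regions), both at Col1a2, and the cartilage list 1 (0.0741% against 0.23%), at Matn3.

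**Figure D2:**
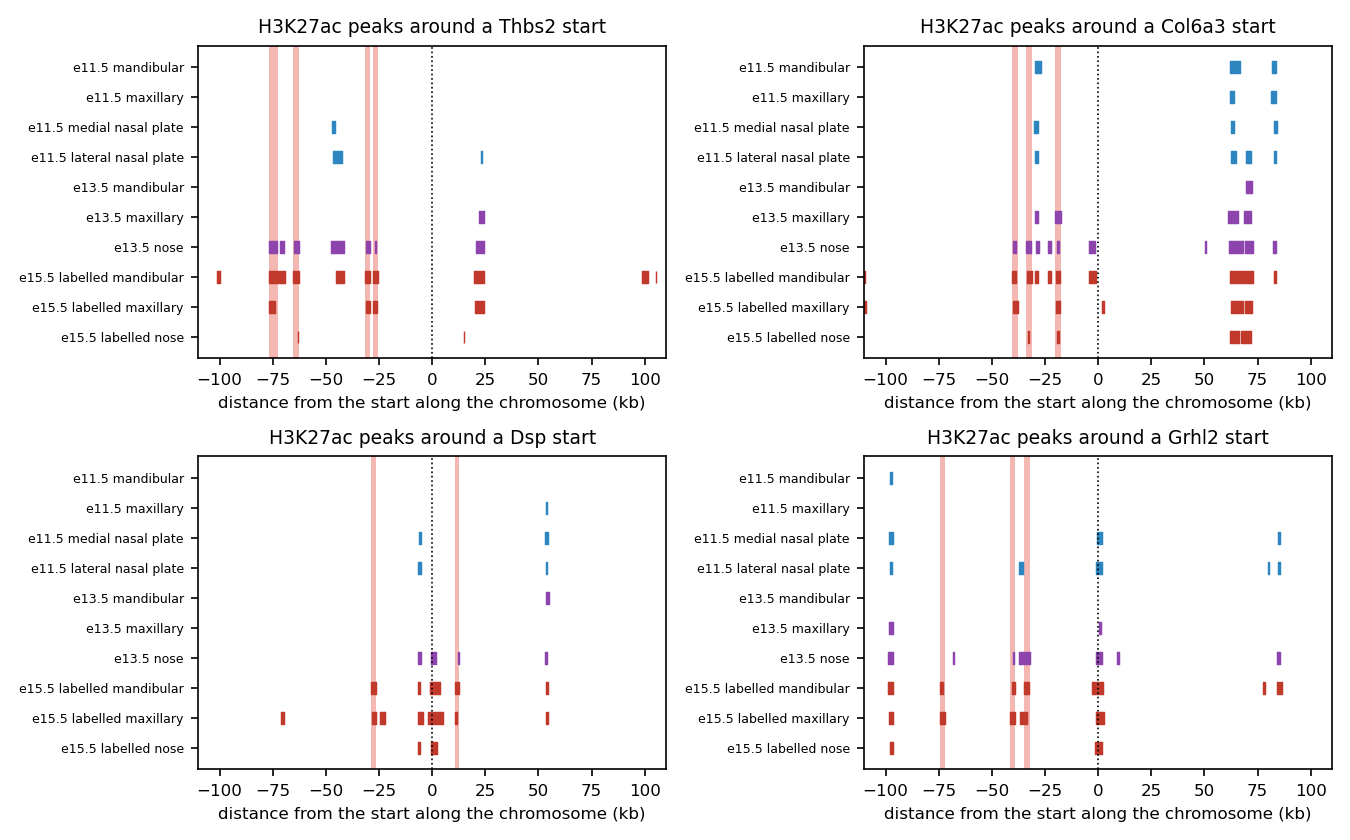
H3K27ac peaks of each library (rows, coloured by stage) within 110 kb of a coding start of Thbs2, Col6a3, Dsp and Grhl2, by distance from that start along the chromosome in kb; pale bands are late regions, bars are peaks to scale and the dotted line is the start. The late bands hold e15.5 peaks and, mostly, e13.5 nose peaks, and no e11.5 peaks.

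**Figure D3:**
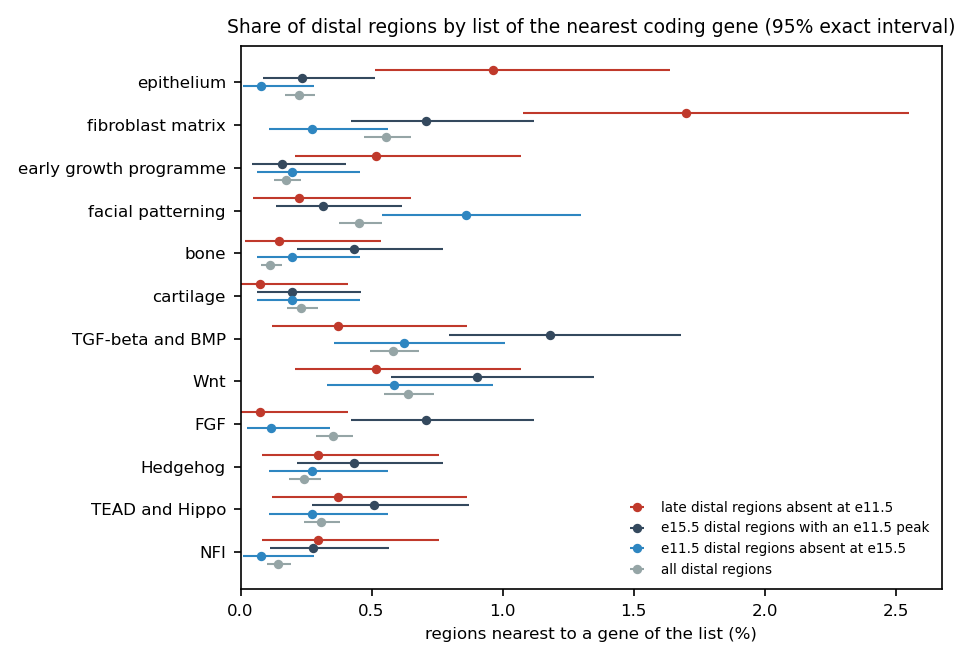
Percent of distal regions whose nearest protein-coding start within 100 kb belongs to a gene of each list, by class of region, with 95% exact binomial intervals. Late regions stand at 0.964% for the epithelium list and 1.7% for the fibroblast matrix list, and below early regions for facial patterning (0.222% against 0.86%).

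Genes of the embryonic growth programme, several of them imprinted, had 7 late regions (0.519%, 0.209 to 1.07) against 0.175% of all distal regions and 0.195% of early regions, and all 7 had an e13.5 peak. Cdkn1c, the imprinted inhibitor of the cell cycle p57, had 3 of them, 2 of which lay in introns of its neighbour Kcnq1. The third (chr7:143463334-143466581, 2284 bp from the coding start) had fold enrichments of 2.79 in the e13.5 maxillary process, 5.15 in the e13.5 nose, and 4.68, 4.21 and 3.87 at e15.5, and an e11.5 peak lay 342 bp from it. Igf2, the imprinted growth factor, had 2 late and 2 early regions. Dlk1 and Igf2bp3 had 1 late region each.

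Facial patterning genes took a smaller share of late than of early regions, with 3 late regions (0.222%, 0.0459 to 0.649) against 0.452% of all distal regions, 0.314% of e15.5 regions with an e11.5 peak and 0.86% of early regions. The share over all distal regions lies inside the interval for late regions. The 3 lay at Alx1, Lhx8 and Twist2, which encode transcription factors of facial mesenchyme. Only that of Alx1 had an e13.5 peak.
In each signalling list given next, the share over all distal regions lay inside the interval for late regions. TGF-beta and BMP genes took 5 late regions (0.371%, 0.12 to 0.863). They took 1.18% of e15.5 regions with an e11.5 peak and 0.583% of all distal regions. FGF genes took 1 (0.0741%, 0.00188 to 0.412), against 0.707% and 0.354%. Wnt genes took 7 (0.519%, 0.209 to 1.07, against 0.903% and 0.638%). Hedgehog genes took 4 (0.297%, 0.0808 to 0.757, against 0.432% and 0.241%), at Gli2, Gas1 and Ptch1 and each with an e13.5 peak. The shares of Wnt and Hedgehog genes were thus near that of all distal regions. Of the genes for nuclear factor I proteins, 3 of 4 had a late region: 2 at Nfib, 1 at Nfia and 1 at Nfix. These are 0.297% of late regions, against 0.275% of e15.5 regions with an e11.5 peak and 0.142% of all distal regions. Nuclear receptors and steroid-responsive factors took 6 late regions (0.445%, 0.163 to 0.966). They took 0.511% of e15.5 regions with an e11.5 peak and 0.259% of all distal regions, both inside that interval. Around Zbtb16, a zinc finger repressor, 3 of 9 distal regions were late, all in its introns, and 1 of these had an e13.5 peak. Around Rxra, the partner receptor of many nuclear receptors, 2 of 16 were late.

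Promoters of the genes nearest to late regions were mostly marked at both ends of the series. Of 1007 genes, 643 (63.9%) had a promoter peak in at least 1 e11.5 and at least 1 e15.5 library, against 67.2% of genes nearest to e15.5 regions with an e11.5 peak, 60.5% of genes nearest to early regions and 42.9% of all protein-coding genes. A promoter peak at e15.5 and none at e11.5 was found in 130 (12.9%, 10.9 to 15.1), against 5.73% of all protein-coding genes, 9.09% of genes nearest to e15.5 regions with an e11.5 peak and 6.61% of genes nearest to early regions. A promoter peak at e11.5 and none at e15.5 was found in 25 (2.48%), against 4.5% of all protein-coding genes. These promoter calls come from the libraries the rule used and are a description.

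Among motifs with at least 100 matches, AP-1 had the highest ratio of late to early regions, 1.51. It had 0.255 matches per kb in them (95% Poisson interval 0.238 to 0.273), against 0.202 (0.193 to 0.212) in e15.5 regions with an e11.5 peak, 0.169 (0.159 to 0.181) in early regions and 0.199 in all distal regions. The same letters read backwards, a control of equal base composition, gave 0.189, 0.186, 0.17 and 0.184. With equal numbers of peaks per library, AP-1 in late regions was 0.206 per kb (0.177 to 0.238). In members found in all 3 e15.5 libraries it was 0.229 (0.186 to 0.279). Both intervals hold the 0.199 of all distal regions, which was counted with the full peak lists. A core lay in the central 1 kb of 24.0% of late regions (21.8 to 26.4), 18.8% of e15.5 regions with an e11.5 peak, 14.8% of early regions and 17.8% of all distal regions. Of the late regions 736 held none, 421 held 1, 145 held 2, 40 held 3, 6 held 4 and 1 held 6. The region with 6 lay 1606 bp from a start of Ppl, which encodes the cornified envelope protein periplakin, and was picked out after its value was seen (chr16:5134027-5137533).
No other motif searched is contained in the AP-1 core or contains it.

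AP-1 was denser in the late regions that had no e13.5 peak, a split the rule did not make. The 510 late regions without an e13.5 peak had 0.303 matches per kb (0.271 to 0.337) and a core in the central 1 kb of 31.4% (27.4 to 35.6), while the 839 with one had 0.232 (0.212 to 0.253) and 19.5% (16.9 to 22.4). Their median widths were 2052 and 2496 bp, and the central window has the same length in both. TEAD matches (acattcc) differed less, at 0.208 and 0.189 per kb, and SOX matches did not differ beyond their intervals, at 0.28 (0.249 to 0.313) and 0.281 (0.26 to 0.304).

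Distal regions new at e13.5 that were not late regions had no higher AP-1 density than e13.5 regions with an e11.5 peak. With late regions left out, distal regions of the e13.5 mandibular, maxillary and nose libraries that had no e11.5 peak held 0.196, 0.131 and 0.177 AP-1 matches per kb, and those that had one held 0.197, 0.181 and 0.187. The mean difference was -0.0204 per kb, lower in 3 of 3 libraries (exact two-sided sign-flip permutation p = 0.25, the smallest possible). The maxillary difference was -0.0497, from 95 regions whose interval (0.0698 to 0.224) held the 0.181 of the other regions. In the mandibular and nose libraries the differences were -0.00168 and -0.00974. Leaving out late regions removes regions new at e13.5 that were also called at e15.5, and late regions with an e13.5 peak held 0.232 per kb. With late regions kept, an alternative added after seeing the data, the densities without an e11.5 peak were 0.19, 0.181 and 0.192 per kb and the mean difference was -0.000672, lower in the mandibular library and higher in the nose. Distal regions found in 1 e15.5 library and in no e11.5 library held 0.221, 0.228 and 0.184 per kb in the libraries labelled as mandibular, maxillary and nose. Those found in 1 e11.5 library and in no e15.5 library held 0.197, 0.164, 0.187 and 0.2 in the mandibular and maxillary processes and the medial and lateral nasal plates, so the ranges of the stages overlapped.

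SOX sites (aacaaag) were sparser in late than in early regions. They had 0.281 matches per kb (0.263 to 0.3) in late regions, 0.298 in e15.5 regions with an e11.5 peak, 0.381 in early regions and 0.33 in all distal regions. The central 1 kb held one in 24.2% of late regions, 36.3% of early regions and 29.3% of all distal regions. SOX was also counted in distal regions of 1 e15.5 library and no e11.5 library, or the reverse, whatever their e13.5 calls. Matches were 0.305, 0.291 and 0.316 per kb in the e15.5 libraries and 0.369, 0.367, 0.401 and 0.369 in the e11.5 libraries. These ranges per kb did not overlap. A match lay in the central 1 kb of 27.3%, 25.5% and 26.1% of the e15.5 regions. At e11.5 the shares were 26.5%, 30.3%, 33.5% and 30.0%, so by this measure the ranges overlapped. Median widths were 1163, 1111 and 295 bp at e15.5 and 404, 302, 720.5 and 565 bp at e11.5. The part of width in the densities was not tested. In regions new at e13.5 the direction was not shared by all libraries. The difference from regions with an e11.5 peak was 0.0192 per kb in the mandibular process and -0.00989 in the nose. It was -0.112 in the maxillary process, on 95 new regions. Homeodomain cores were also sparser in late than in early regions, with ratios of 0.808 for taatta and 0.76 for taattg, but their letters read backwards gave 0.81 and 0.825. The ratio for TCF/LEF (ctttgat) was 0.797 and 1.06 backwards. GRHL (14 matches), MEF2 (27) and full nuclear factor I sites (8) had ratios of 2.84, 1.99 and 2.16 over early regions on few matches.

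**Figure D4:**
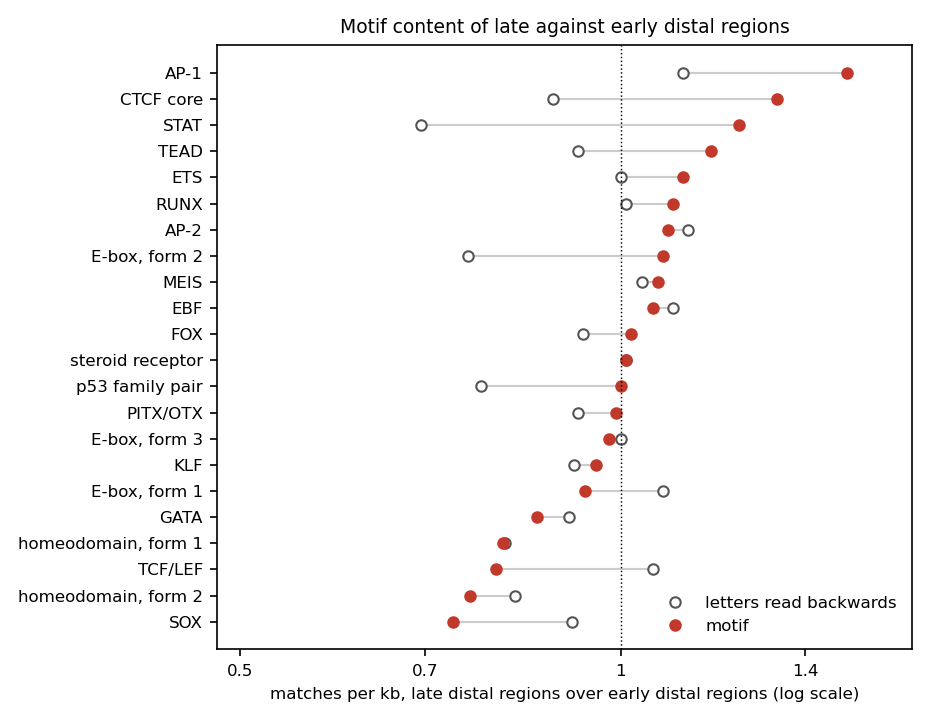
Ratio of motif matches per kb in late distal regions to that in early distal regions (log axis), for the motifs with at least 100 matches in late regions; filled points are the motif and open points its letters read backwards. AP-1 stands at 1.51 with 1.12 backwards and SOX at 0.737 with 0.915 backwards; E-box and homeodomain forms are numbered because each has several cores.

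**Figure D5:**
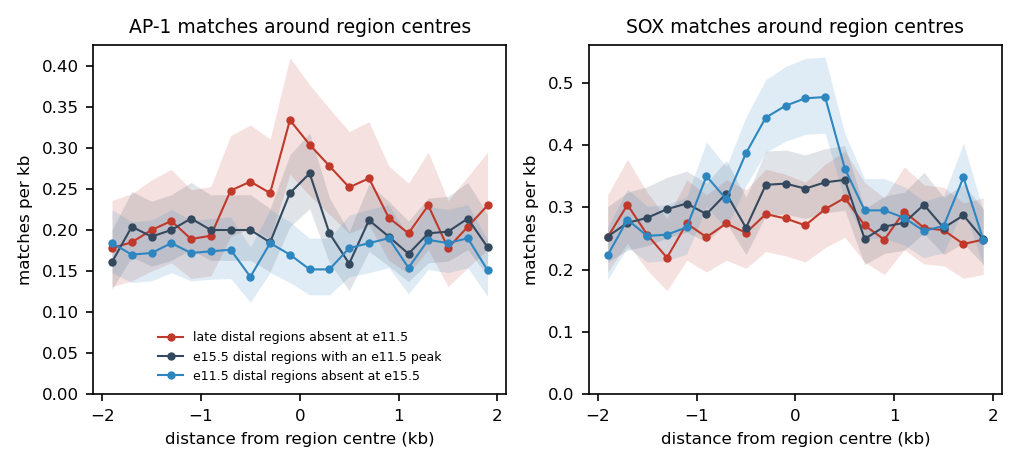
AP-1 (left) and SOX (right) matches per kb in 200 bp bins by distance from the region centre in kb, for late regions, e15.5 regions with an e11.5 peak and early regions; bands are 95% Poisson intervals. AP-1 in late regions stands at 0.334 and 0.304 per kb in the bins on each side of the centre, and SOX is highest at the centre of early regions.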

How the data were processed

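The authors mapped H3K27ac by ChIP-seq in facial tissue of wild-type mouse embryos. MACS2 2.2.4, BWA 0.7.7 and SAMtools 0.1.19, with the build mm10, are listed in the submitters' processing notes without settings. The deposited broad peak lists hold 4 values per peak, which the authors computed within 1 library: a score, a fold over background, a −log10 p-value and a −log10 q-value. These values are not comparable between libraries, the lowest −log10 q was 1.3 in every list, and signal below the calling threshold is not listed. The read depth is unknown, and 10 input samples were not analysed here.

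Peaks on chromosomes 1 to 19, X and Y (144852 of 144896) were merged where they overlapped, and presence meant an overlap of at least 1 bp. GENCODE vM21 gave 132629 transcript starts and 21911 protein-coding genes to look for the nearest, with genomic sequence from GRCm38. Samples were grouped by stage as labelled. Motifs were fixed letters matched on both strands. Shares have exact Clopper-Pearson intervals and rates exact Poisson intervals. Differences at e13.5 were tested by exact sign-flip permutation over libraries. Nothing in the labels says whether tissues came from the same embryos.

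The members, the 24 gene lists, the motifs and the rule for named genes were chosen with earlier results of these data known. The rule named the 20 genes with most late regions, up to 4 genes per list, the 8 widest members, the 5 longest runs (6 tied) and the 8 members with the highest fold ranks in all 3 e15.5 libraries. The comparisons by motif in regions new at e13.5 and in regions of 1 e11.5 or e15.5 library were added after the data were seen. Merging equalled bedtools 2.31.1 for all 42346 regions, and the rule recovered 551 of 551 planted regions in simulated data. Alternatives were equal peak numbers, a cutoff of 2 on −log10 q, other windows, starts, merging and overlap rules, and leaving out each library. The scripts ran under Python 3.11.15 with scipy 1.17.1, pandas 2.3.3, matplotlib 3.10.9 and numpy 2.4.6. One sequence is not reported here.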

Additional observations from a re-analysis of the deposited data

How the results depend on the processing

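Of 196 values recomputed under the alternatives, 166 stayed within the limits of the reported value (a factor of 1.5 for the number of regions, the reported interval for shares and rates, the direction for differences), 28 moved and 2 reversed. With a −log10 q of at least 2 there were 711 late regions and 68.2% had an e13.5 peak. With equal numbers of peaks per library (6571) there were 287, of which 42.9% had an e13.5 peak, 32.4% lay in introns and 54.7% between genes. AP-1 in these 287 was 0.206 per kb (0.177 to 0.238), against 0.199 in all distal regions of the full peak lists. Among the 147 members in all 3 e15.5 libraries, 77.6% had an e13.5 peak, AP-1 was 0.229 per kb (0.186 to 0.279) and 0.68% fell to matrix genes. In the central 500 bp AP-1 was 0.307 per kb. Over whole late regions it was 0.255, and read backwards 0.189. With nearest starts limited to 20 kb, 0.297% fell to epithelial and 0.593% to matrix genes (0.106% and 0.23% of all distal regions). With late regions kept, an alternative chosen after seeing the data, the AP-1 difference at e13.5 was -0.000672 against -0.0204 per kb.

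Leaving out 1 library at a time gave 197 to 1663 late regions, with an e13.5 peak in 9.35% (without the e13.5 nose) to 72.7%, 38.9% to 41.4% in introns and 45.9% to 49.1% between genes. AP-1 ranged from 0.221 to 0.257 per kb in late and 0.154 to 0.171 in early regions. The epithelium share ranged from 0.805% to 1.06% and the matrix share from 0.508% to 2.78%. The e13.5 difference from e15.5 regions with an e11.5 peak ranged from -42.8 to -30.8 percentage points. That from early regions ranged from -0.875 to 9.81, reversed without the e11.5 medial nasal plate (-0.875) or lateral nasal plate (-0.076). The cause was not tested. No analysis paired by tissue was made, because no fit compares libraries of different stages. The mandibular and maxillary process were labelled at every stage, but the e15.5 labels differ from the peak names. Replicate numbers were only names in accession order. The sign-flip test already compares classes of regions within each library.

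Peak lists without reads limit these results: absence at e11.5 means that no peak was called, and the number of late regions follows the number of peaks in each list.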

Other observations

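Late regions were spread over the genome, from 3.44% of the distal regions of chromosome 18 to 6.08% of those of chromosome 7, with 4.27% on the X chromosome and none of 3 on the Y chromosome. Their median GC content was 47.1%, against 46.3% for early regions and 46.5% for all distal regions. The CTCF core motif, on which the insulator protein CTCF binds, had 0.0759 matches per kb in late regions, 0.0773 in e15.5 regions with an e11.5 peak and 0.057 in early regions. The AP-1 core flanked by A and T had 39 matches in late regions, 4.53% of all their cores, against 4.96% in early regions. Of genes that encode AP-1 proteins, Fos and Fosl2 each had 1 late region, which is 0.148% of late regions for the AP-1 and ATF list, against 0.109% of all distal regions and 0.314% of e15.5 regions with an e11.5 peak.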
